A study of Homo sapiens with 6 samples.

Results

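Molecular motors of the kinesin, dynein and myosin families were compared between spheroids of the colorectal cancer lines SW480 and SW620. The members are all features of the deposited expression table whose gene symbol begins with KIF and a digit or C, DYNC, DYNL, DNAH and a digit, MYO and a digit, or MYH and a digit. These were 78 features of 72 genes, among 14884 named genes in all. For a gene with several features the brightest one stood for it. Of the 72 genes, 69 code for proteins: 15 mitotic kinesins, 27 other kinesins, 5 chains grouped by symbol as cytoplasmic dyneins and 22 unconventional myosins. The remaining 3 are non-coding transcripts named after a motor gene, and they are given apart. Heavy chains of dynein-1, of axonemal dyneins and of myosin II were not analysed here.

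SW480 is an established line grown from a primary colorectal tumour and SW620 one grown from a lymph node metastasis. Neither carried a treatment, and both were kept as floating spheres in medium with growth factors and without serum. Total RNA of each was hybridised to 3 whole-transcript arrays, which the submitters call technical replicates. A p-value therefore measures the spread between arrays, and each group is a single line. The stated aim was to find how the lines differ in what the submitters abbreviate as the TIC compartment.

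Motors turn the energy of ATP into movement along a filament. Most kinesins walk to the growing ends of microtubules, dyneins walk the other way, and myosins pull on actin. Dividing cells need a set of kinesins that are switched on late in the cell cycle, to push spindle poles apart, align chromosomes and cut the cell at cytokinesis. The other kinesins carry vesicles, organelles and ciliary building blocks. In the intestine, unconventional myosins tie the microvilli of the brush border to the membrane and move recycling vesicles to the apical surface.

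The promoters of the mitotic kinesins are shown first, because these genes share a cell-cycle program. In SW620 5 of them were lower and 2 higher, a share called of 46.7% against 39.5% of protein-coding genes. A CHR element, read here as TTTGAA, is bound by the MuvB complexes that silence such genes early in the cycle and switch them on before mitosis. CCAAT boxes, bound by NF-Y, often lie close to it. The windows below run from 120 bases before the start of transcription to 30 bases after it, 5′ to 3′ on the gene's strand. TTTGAA and CCAAT, or their reverse complements TTCAAA and ATTGG, are in capitals. KIF14, KIF23, KIF18B and KIF20A are genes that were lower in SW620, KIF20B was higher, and KIF11 did not pass the test. They were picked to show the motifs: KIF2A, higher in SW620, and KIF2B, lower, hold neither motif and are not shown.
KIF14: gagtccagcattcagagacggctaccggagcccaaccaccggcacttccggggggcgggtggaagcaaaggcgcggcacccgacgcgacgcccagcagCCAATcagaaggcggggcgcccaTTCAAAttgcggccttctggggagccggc
KIF23: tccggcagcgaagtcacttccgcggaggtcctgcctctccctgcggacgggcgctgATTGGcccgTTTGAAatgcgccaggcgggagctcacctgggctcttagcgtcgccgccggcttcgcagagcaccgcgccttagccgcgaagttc
KIF18B: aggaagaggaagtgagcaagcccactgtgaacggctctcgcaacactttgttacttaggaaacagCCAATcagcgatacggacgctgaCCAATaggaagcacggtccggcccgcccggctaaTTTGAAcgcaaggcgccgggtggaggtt
KIF20A: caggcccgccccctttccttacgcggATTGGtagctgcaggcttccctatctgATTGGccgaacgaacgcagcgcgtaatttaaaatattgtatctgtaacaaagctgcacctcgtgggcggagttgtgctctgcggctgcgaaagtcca
KIF20B: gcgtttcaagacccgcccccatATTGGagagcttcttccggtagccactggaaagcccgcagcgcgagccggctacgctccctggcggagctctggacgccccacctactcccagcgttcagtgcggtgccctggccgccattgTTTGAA
KIF11: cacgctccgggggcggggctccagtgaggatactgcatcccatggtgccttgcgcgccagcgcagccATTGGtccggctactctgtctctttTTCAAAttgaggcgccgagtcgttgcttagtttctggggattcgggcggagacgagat
The sequences are those of RefSeq on GRCh38.p14. The KIF14 window is chr1:200620722-200620871 on the minus strand, and that of KIF18B is chr17:44947744-44947893 on the minus strand. On the plus strand lie KIF23 (chr15:69414229-69414378), KIF20A (chr5:138178992-138179141), KIF20B (chr10:89701470-89701619) and KIF11 (chr10:92593010-92593159).

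Both motifs were searched on both strands from 250 bases before to 50 bases after each start. A match of each shared a base at the start of DYNC2I2, and no other motor had such an overlap. RefSeq promoters were matched for 59 of the 69 coding motors. Entries were missing for KIF5A, KIF13B, KIF19, KIF21B, KIF26B, KIF27, KIFC2, KIFC3, MYO7A and MYO18B. Of 16 starts of mitotic kinesins, 10 held TTTGAA (62.5%), 11 held CCAAT (68.8%) and 9 held both (56.2%). Over 22199 starts of protein-coding genes the shares were 12.4%, 34.7% and 4.97%. Among 60 starts of the other motors they were 8.33%, 28.3% and 5%. Within the mitotic kinesins the motif did not sort the genes by direction. TTTGAA was found at 3 of the 5 starts of genes lower in SW620, at 1 of the 2 of genes higher, and at 6 of the 9 of genes that did not pass the test. KIF20A, lower in SW620, holds a pair of CCAAT boxes and no TTTGAA in this window. A match describes the letters and not a bound site.

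Over the whole family, 17 of the 69 coding motors were higher in SW620 and 16 were lower, in limma's moderated test with a Benjamini-Hochberg adjusted p below 0.05 over all 14884 genes. The share called was 47.8%, against 35.6% of all genes and 39.5% of protein-coding genes. By direction, 24.6% of the motors were higher and 23.2% lower, against 17.6% and 21.9% of protein-coding genes. Brightness bears on these shares. Among genes above the median feature (4.065 on the log2 scale), 31 of 54 motors were called (57.4%) against 51.6% of protein-coding genes, and among dimmer genes 2 of 15 (13.3%) against 11.1%. The median size of the difference, regardless of sign, was 0.19 on the log2 scale for motors and 0.19 for protein-coding genes. Among genes above the median feature it was 0.36 for motors and 0.27 for protein-coding genes. A called difference of 2-fold or more was seen in 5 motors, beside 6.92% of protein-coding genes. MYO1D, KIF26B and KIF1A were lower in SW620, against 4.30% of protein-coding genes, and MYO1E and KIF5A were higher, against 2.62%. RNA of whole spheroids was measured, so that fewer cells of a type and less RNA per cell cannot be told apart.

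**Figure D1:**
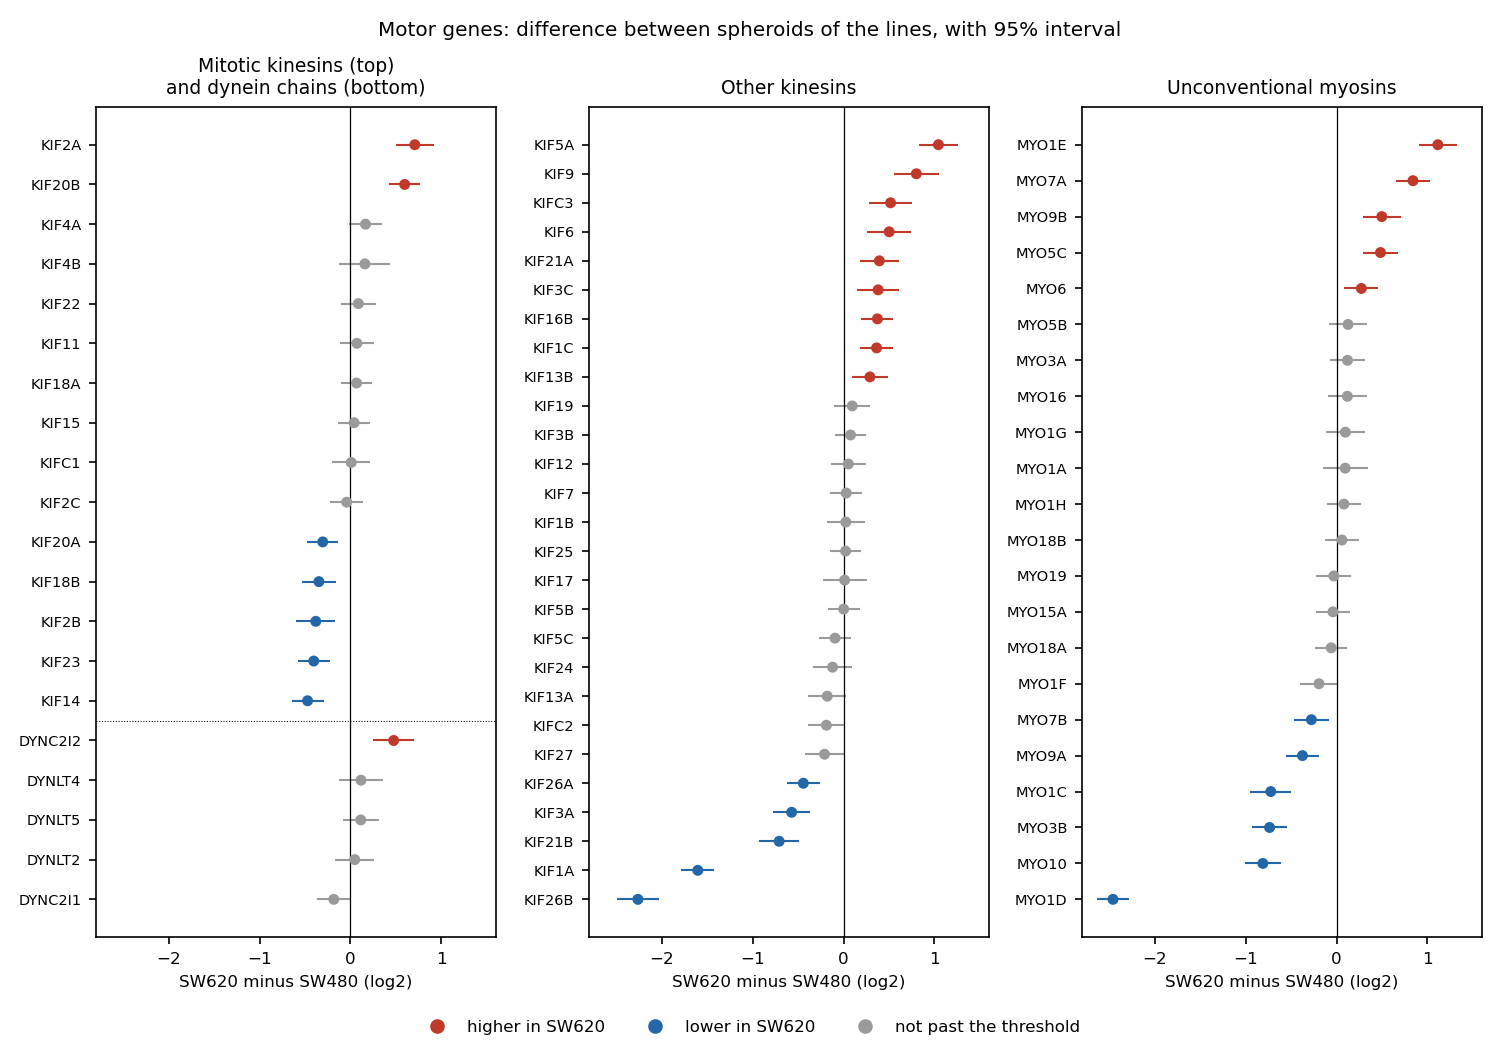
Difference between spheroids of SW620 and SW480 (log2, horizontal axis) for the 69 coding motors, as points with 95% intervals of limma's fit; red is higher in SW620, blue lower, grey not past an adjusted p of 0.05. Most differences lie within 1 of 0, and MYO1D, KIF26B and KIF1A stand out on the left.

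As facts of the series, the log2 values ran from 1.99 to 13.9 with array medians between 4.04 and 4.07, and arrays of a line correlated with r of 0.988 to 0.992 across features, against 0.963 to 0.965 between lines. The median standard deviation of a coding motor between arrays was 0.0793 in SW480 and 0.0997 in SW620. Of 10 measured epithelial markers 8 had a mean above the median feature, among them KRT18 (11.6 in SW480 and 11.7 in SW620) and EPCAM (9.71 and 9.61), while CDX1 and KRT20 were below it in both lines. Of the 10, 4 were higher and 1 lower, namely CDX2 (-1.54), with CEACAM5 (2.42) and VIL1 (0.62) among the higher ones. Of 13 measured markers of multiciliated cells 4 were above the median feature, 1 was higher (RSPH4A, by 0.38) and 1 lower (MCIDAS, by -0.46), and of 9 of striated muscle 3 were above it, 1 was higher and 4 lower, led by TNNI3 (-1.40), TTN (-0.56) and DES (-0.43). Of 7 markers of smooth muscle and fibroblasts 3 were higher, LUM (3.22), SMTN (0.30) and TAGLN (0.28). Of 6 neuronal markers 1 was higher (GAP43, 0.48) and 1 lower (SYN1, -0.67), and none of 6 inner ear and photoreceptor markers passed the test; the nearest was STRC (-0.21, adjusted p = 0.135). Beside these marker counts, 39.5% of protein-coding genes were called, 51.6% of those above the median feature and 11.1% of dimmer ones. The part of such cells in any result was not tested.

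The mitotic kinesins were measured at all 15 members of their list. In SW620, 5 were lower (KIF14, KIF23, KIF2B, KIF18B and KIF20A), 2 were higher (KIF2A and KIF20B) and 8 did not pass the test, and none differed by 2-fold. The share called was 46.7%, against 39.5% of protein-coding genes and 51.6% of those above the median feature, where all but KIF2B lay. The median difference was 0.0406, against 0.00733 over protein-coding genes. When a difference above 1.2-fold was asked for (limma's treat), none of the 5 lower genes passed and both higher ones did.

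KIF2A, which takes tubulin off microtubule ends at spindle poles and also works in neurons, had the largest difference of these. Its level was 8.38, 8.52 and 8.65 on the SW480 arrays and 9.14, 9.33 and 9.21 on the SW620 arrays. The lines did not overlap, and SW620 was 1.63-fold higher (log2 difference 0.71, standard error 0.0950, adjusted p = 5.95e-05 in limma). KIF20B, a kinesin of the midzone needed to finish cytokinesis, was the other higher one. It read 9.68, 9.64 and 9.65 in SW480 against 10.24, 10.22 and 10.28 in SW620. Every SW620 array was above every SW480 array, by 1.51-fold in the means (0.60, standard error 0.0787, adjusted p = 5.09e-05).

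KIF14, which holds citron kinase at the midbody, went the other way. It stood at 8.96, 8.91 and 9.03 in SW480 and at 8.52, 8.47 and 8.51 in SW620. All SW620 arrays were low, by 1.39-fold (-0.47, standard error 0.0808, adjusted p = 0.000452). KIF23, the motor subunit of centralspindlin, which bundles midzone microtubules, had 8.93, 8.94 and 9.06 in SW480 and 8.57, 8.55 and 8.58 in SW620. Again the arrays of the lines did not overlap, and SW620 was 1.32-fold lower (-0.40, standard error 0.0815, adjusted p = 0.00157). KIF20A, which brings the chromosomal passenger complex to the midzone, differed by -0.31, and KIF18B, which trims the plus ends of astral microtubules, by -0.35. KIF2B, a depolymerase acting at kinetochores, differed by -0.38 at a level below the median feature (4.04 in SW480 and 3.66 in SW620), so its size is uncertain.

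The other 8 mitotic kinesins did not pass the test. KIF11, also called Eg5, which pushes the poles apart, had a mean of 9.98 ± 0.0878 (SD of 3 arrays) in SW480 and 10.05 ± 0.0764 in SW620, with a 95% interval of the difference from -0.12 to 0.26. The remaining ones lay between -0.0414 and 0.17. They were the chromokinesins KIF4A, KIF4B and KIF22, KIF18A, which damps chromosome oscillations, KIF15, which can back up KIF11, KIFC1, a minus-end motor that clusters extra centrosomes, and KIF2C, a depolymerase at centromeres. KIF4B is a near-identical copy of KIF4A, and probes may read both. Of 4 features annotated to KIFC1, a pair held identical mean levels of 7.37 and 7.38 in the lines, and the dimmest one differed by 0.27 (adjusted p = 0.0720 over all named features).

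Genes that work beside the mitotic kinesins were taken from a list of spindle and midzone partners, of which 19 of 28 were measured. In SW620 6 were lower, 1 was higher and 12 did not pass, with a median of 0.0346. All 19 were above the median feature, and fewer of them were called than the 51.6% of protein-coding genes there. The checkpoint kinase BUB1 (-0.74) and the kinetochore subunit NDC80 (-0.71) were lower, and ECT2, the exchange factor that centralspindlin recruits to start the cleavage furrow, was higher (0.66). Of 17 measured regulators of the cell-cycle program, 7 were lower and 3 higher, led by the repressor E2F8 (-0.91), TFDP2, a partner of E2F factors (-0.80), and E2F1 (-0.71). All 17 were above the median feature, where 51.6% of protein-coding genes were called, so this count is near the background.

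Of the 27 other kinesins, 9 were higher in SW620, 5 were lower and 13 did not pass. The share called was 51.9%, against 39.5% of protein-coding genes and 51.6% of those above the median feature. The other kinesins held the largest kinesin differences. KIF26B, an atypical kinesin that binds microtubules without moving along them and is degraded in response to WNT5A signals, had 6.47, 6.60 and 6.69 in SW480 and 4.27, 4.17 and 4.53 in SW620. The SW620 arrays lay near the median feature, and the line was 4.80-fold lower (-2.26, standard error 0.105, adjusted p = 2.65e-09). Its paralogue KIF26A was lower too, by -0.44.

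KIF1A, which carries synaptic and dense-core vesicles in neurons, gave 5.74, 5.64 and 5.68 in SW480 and 4.11, 3.99 and 4.15 in SW620. It was 3.04-fold lower in SW620 (-1.60, standard error 0.0841, adjusted p = 8.06e-09), where it was at the median feature. Of its relatives, KIF1C, a carrier of integrin-containing vesicles, was higher by 0.36, and the brighter feature of KIF1B, which moves mitochondria and synaptic vesicle precursors, differed by 0.0251 (95% interval -0.18 to 0.23).

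KIF5A, a neuronal form of conventional kinesin, was at 3.92, 3.79 and 4.02 in SW480 and at 5.06, 4.99 and 4.81 in SW620. All SW480 arrays were below the median feature, so the 2.06-fold higher level in SW620 (1.04, standard error 0.0971, adjusted p = 2.08e-06) is uncertain in size. KIF5B, the form found in most cells, had a mean of 11.0 in both lines, with a 95% interval of the difference from -0.18 to 0.18. KIF5C, another neuronal form, was below the 25th percentile feature and did not pass (-0.0934). KIF9, a kinesin of motile cilia and flagella, read 4.05, 4.43 and 4.25 in SW480 and 4.88, 5.05 and 5.20 in SW620. These are low levels without overlap, 1.74-fold apart (0.80, standard error 0.113, adjusted p = 9.30e-05).

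**Figure D2:**
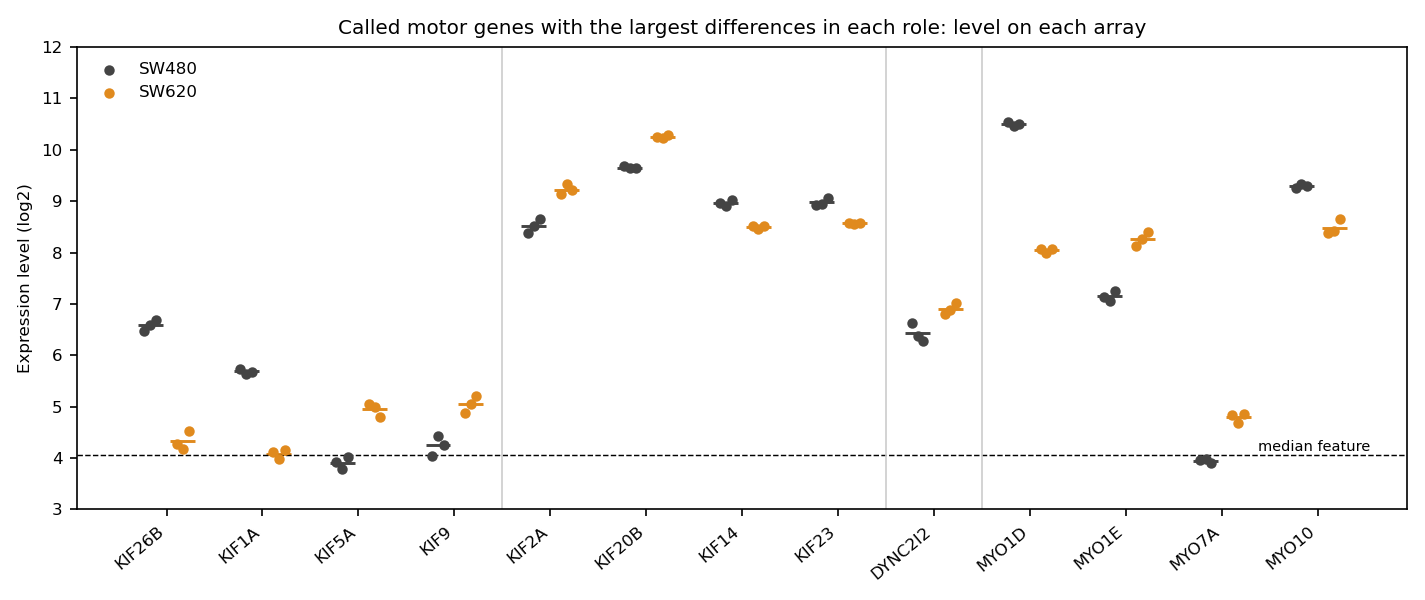
Expression level (log2, vertical axis) of 13 motors on each array, dark for SW480 and orange for SW620, with bars at the mean of 3 arrays and a dashed line at the median feature; the blocks are other kinesins, mitotic kinesins, a dynein-2 chain and myosins. The arrays of the lines do not overlap for any of the 13, and KIF1A and KIF26B in SW620 and KIF5A, KIF9 and MYO7A in SW480 lie close to the dashed line.

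Kinesin-2 is a trimer of KIF3A, either KIF3B or KIF3C, and the adaptor KIFAP3, and its form with KIF3B carries ciliary building blocks outward. Its subunits changed in different directions. KIF3A was lower in SW620 (-0.57), KIF3C was higher (0.38), KIFAP3 was higher (0.99, from 6.15 to 7.14), and KIF3B differed by 0.0771 without passing the test. The call for KIF3C rests on SW480 replicate 3, without which its difference was 0.27 (adjusted p = 0.0610). The KIF21 pair, which restrains microtubule growth, also split: KIF21A was higher by 0.39 and KIF21B lower by -0.71.

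Further kinesins higher in SW620 were KIFC3, a minus-end motor found at cell junctions (0.52), KIF6, a kinesin of ependymal cilia (0.50), KIF16B, which moves early endosomes (0.37), and KIF13B, a carrier of membrane proteins (0.29). KIFC3 and KIF6 had SW480 means below the median feature. KIF13B lost its call without any one of SW480 replicate 1, 2 or 3 or SW620 replicate 3, with differences of 0.21 to 0.30 and adjusted p from 0.0609 to 0.0983. The kinesins not yet given, none of which passed, were KIF7, a regulator of Hedgehog signalling in the cilium, KIF17, KIF19, which shortens cilia, KIF24, which acts at centrioles, KIF12, KIF13A, KIF25, KIF27 and KIFC2. They ranged from -0.21 (KIF27) to 0.0957 (KIF19).

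Among 16 measured kinesin light chains and cargo adaptors, 5 were lower and 2 higher in SW620, with a median of -0.0763. The share called lay between the 39.5% of protein-coding genes and the 51.6% of those above the median feature. KIFAP3 was followed by KIFBP, which binds kinesin motor domains and blocks them (0.82), and by RHOT1, which links mitochondria to kinesin (-0.57).

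The cytoplasmic dyneins were represented by 5 chains only, grouped by their DYNC or DYNL symbols and not by a known place in the cell. DYNC2I2, an intermediate chain of dynein-2, which returns cargo from the tip of the cilium, was higher in SW620. Its levels were 6.63, 6.37 and 6.29 in SW480 and 6.81, 6.88 and 7.02 in SW620, close but without overlap, and 1.39-fold apart (0.48, standard error 0.104, adjusted p = 0.00272). The other intermediate chain, DYNC2I1, differed by -0.18 (adjusted p = 0.109). The light chains DYNLT2, DYNLT4 and DYNLT5 did not pass, at 0.0476 to 0.12. DYNLT2 was below the median feature and DYNLT5 below the 25th percentile feature.

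Partners of the dyneins were measured more fully. Of 18 intraflagellar transport proteins 3 were higher and 3 lower in SW620, with IFT80 lower (-0.65) and IFT122 and IFT81 higher (0.59 and 0.55). Of 7 dynactin subunits, which make dynein processive, DCTN4 (-0.42) and DCTN1 (-0.26) were lower and none higher. Of 19 adaptors and regulators, 5 were lower and 2 higher. GPSM2, also called LGN, which places dynein at the cell cortex to orient the spindle, was 3.30-fold lower in SW620 (-1.72, from 9.56 to 7.84). BICD1, which ties dynein to Golgi vesicles, was higher (0.90), and HOOK2, an adaptor at the centrosome, was lower (-0.69). Of 8 axonemal partners the assembly factor SPAG1 (0.79) and CCDC40 (0.32) were higher and ODAD4 (-0.36) lower. In each of these dynein lists the share called was below the 39.5% of protein-coding genes, and so below the 51.6% of those above the median feature.

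Unconventional myosins held the largest difference of the family. Of 22, 5 were higher in SW620, 6 were lower and 11 did not pass. That is a share called of 50%, against 39.5% of protein-coding genes and 51.6% of those above the median feature. MYO1D, a short-tailed class I myosin that links membranes to actin and is known for setting left-right asymmetry in animals, read 10.54, 10.47 and 10.50 in SW480 and 8.06, 7.98 and 8.08 in SW620. Both lines were far above the median feature and far apart. SW620 was 5.50-fold lower (-2.46, standard error 0.0804, adjusted p = 9.45e-11). MYO1E, a long-tailed class I myosin of endocytosis and cell contacts, was the reverse, with 7.13, 7.06 and 7.26 in SW480 and 8.13, 8.26 and 8.40 in SW620. It was 2.16-fold higher in SW620 (1.11, standard error 0.0961, adjusted p = 1.03e-06), with no overlap.

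Among the other class I myosins only MYO1C passed the test. MYO1C, which tethers exocytic vesicles and lipid rafts to actin, was lower in SW620 (-0.72). MYO1A, a main motor of the brush border of mature enterocytes, was below the median feature in both lines (3.50 and 3.59) and did not pass. MYO1F and MYO1G, myosins of blood cells, were also dim and did not pass (-0.19 and 0.0970), nor did MYO1H (0.0812). Of 6 leukocyte markers 3 were higher and 1 lower, with their summed linear signal between 206.8 and 217.8 in SW480 and 812.4 and 824.6 in SW620. Most of that gap is 1 gene, LCP1, an actin bundler that epithelial tumours can also express, which went from 4.56 to 9.21 on the log2 scale. Which cells carried this RNA was not tested. LYZ (1.86) and CD68 (0.43) were also higher and LAPTM5 was lower (-0.41). CSF1R (4.54 in SW480 and 4.61 in SW620) and CD14 did not pass. Of the 6 markers 5 had a mean above the median feature, and CD14, at 3.65 in both lines, was below it.

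MYO10, which travels to the tips of filopodia, was at 9.26, 9.33 and 9.29 in SW480 and at 8.38, 8.42 and 8.65 in SW620. No SW620 array reached the SW480 range, and the line was 1.76-fold lower (-0.81, standard error 0.0918, adjusted p = 1.28e-05). MYO7A, a motor of sensory hair cells and pigment epithelium, had 3.96, 3.98 and 3.90 in SW480 and 4.84, 4.67 and 4.86 in SW620. It was 1.79-fold higher in SW620 (0.84, standard error 0.0856, adjusted p = 4.95e-06), from a level below the median feature. Its relative MYO7B, which holds the tips of brush border microvilli together, was lower by -0.28, also below the median feature. Without any one of SW480 replicates 2 or 3 or SW620 replicates 1 or 2 the call for MYO7B was lost, at -0.22 to -0.28 with adjusted p from 0.0638 to 0.127.

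Close relatives could differ in direction. In class IX, MYO9B was higher in SW620 (0.50) while MYO9A was lower (-0.38). In class V, MYO5C, a motor of secretory granules in glands, was higher (0.48), and MYO5B, which serves apical recycling in enterocytes, differed by 0.13 without passing. In class III, a class of sensory cells, MYO3B was lower (-0.74, from 4.54 to 3.80) and MYO3A, below the 25th percentile feature, did not pass (0.12). MYO6, the myosin that walks backward along actin, was higher by 0.27. Its call was lost without SW480 replicate 1 or 3 or SW620 replicate 2, at 0.23 to 0.26 with adjusted p from 0.0659 to 0.102.

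The last 5 myosins did not pass. They were MYO19, a motor of mitochondria (-0.0307), MYO18A, which shapes the Golgi (-0.0592), MYO15A of hair cell stereocilia (-0.0399), the neuronal MYO16 (0.12) and MYO18B of muscle (0.0597).

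**Figure D3:**
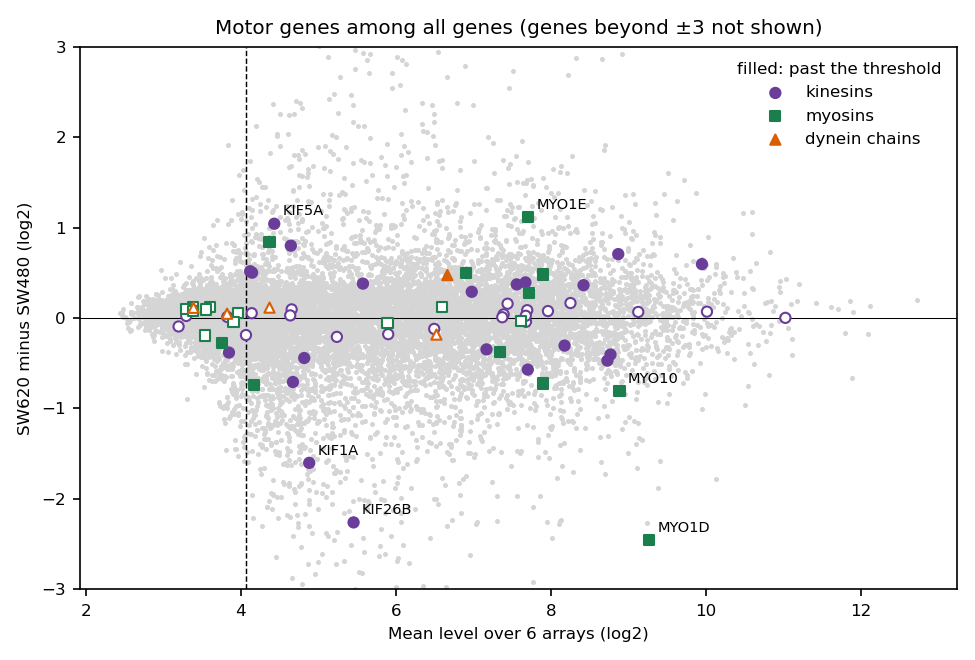
Mean level over the 6 arrays (log2, horizontal axis) against the difference SW620 minus SW480 (log2, vertical axis) for all genes in grey and coding motors in colour, filled where past an adjusted p of 0.05, with a dashed line at the median feature. MYO1D combines a high level with a large difference, and coding motors left of the dashed line lie between -0.38 and 0.12.

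Partners of the myosins were measured in 3 lists. Of 14 brush border and microvillus genes 10 were higher in SW620 and 1 was lower, with a median of 0.63. Of protein-coding genes 17.6% were higher and 21.9% lower, and above the median feature, where 13 of the 14 lay, 51.6% were called. ANKS4B, a scaffold of the complex that MYO7B belongs to, was 4.20-fold higher (2.07, from 5.31 to 7.39), and PDZK1, an apical scaffold (1.39), and EPS8, which caps and bundles actin at microvillus tips (from 7.52 to 8.73), were higher as well. MYO1A and MYO7B, described above as motors of the brush border, were below the median feature in both lines. Other myosins were bright, among them MYO6 (7.58 in SW480 and 7.85 in SW620) and MYO1D (10.5 and 8.04). Of 13 adaptors of myosin V and VI 5 were higher and 7 lower, led by SYTL2 (-1.21), SPIRE1, an actin nucleator that binds myosin V (-0.91), and SYTL4 (0.76). SYTL2 in SW620 (3.69) and SYTL4 in SW480 (3.99) were below the median feature, so their differences are uncertain in size. Of these adaptors 12 lay above the median feature and only 1 of the 13 did not pass, a larger share called than the 51.6% there. Of 14 measured regulators of non-muscle myosin II, none of them a myosin light chain, 5 were lower and 1 higher. Their share called lay between the 39.5% of protein-coding genes and the 51.6% of those above the median feature. SHROOM3, which drives apical constriction, was 2.47-fold lower (-1.30). SHROOM2 was lower (-0.74, with SW620 at 3.64, below the median feature) and S100A4, which binds myosin IIA, was higher (0.73).

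**Figure D4:**
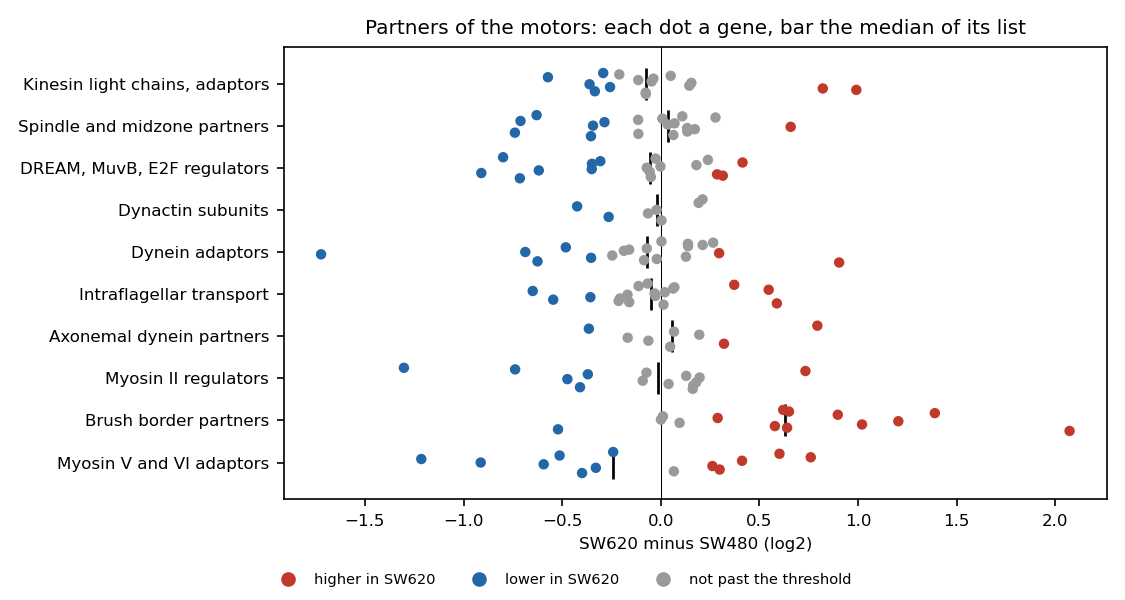
Difference SW620 minus SW480 (log2, horizontal axis) for the measured genes of 10 lists of motor partners, each dot a gene, red higher, blue lower and grey not past an adjusted p of 0.05; the black bar is the median of a list. The bar of the brush border list is at 0.63, and the others lie between -0.24 and 0.0572.

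Over the 10 lists together 29 of 145 measured partners were higher in SW620, 42 were lower and 74 did not pass. The share called lay between the 39.5% of protein-coding genes and the 51.6% of those above the median feature. Most of the partners, but not all, were above it. The non-coding transcripts KIF9-AS1, DNAH8-AS1 and MYO16-AS1 were below the median feature and did not pass, at -0.18 to 0.19.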

How the data were processed

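Total RNA of spheroids of each line was turned into cDNA, labelled with biotin and hybridised to whole-transcript arrays, 3 per line, per the labels' protocols. The deposited table holds log2 expression values; the submitters' processing notes name Partek and RMA, without a version or settings. Base 2 was read from how far the values spread, and every fold rests on that reading. After RMA's background step, folds of dim genes can come out too small. There are 53616 features, and 16098 had 1 gene symbol in the platform annotation, 0 had several and 37518 had none here. The brightest feature stood for each of 14884 genes, 779 of which had several; all matched a RefSeq gene table (GRCh38.p14), used for names, biotypes and gene order.

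SW620 was set against SW480 in a two-sided limma fit without covariates (limma 3.58.1, R 4.3.3, lmFit and eBayes, prior degrees of freedom 8.39). P-values were adjusted over the whole set of genes by Benjamini-Hochberg, and those under 0.05 were called. Errors are moderated standard errors, n is 3 arrays per line, and precision is limited by how few arrays there are. Because the submitters call the arrays technical replicates, these errors cover the spread between arrays and not that between cultures. The rule for named genes gives array values for motors called at 2-fold or more and up to 4 called motors per role, and up to 3 called genes per list, or the gene with the smallest p where none was called. The members and lists were chosen with earlier results of these data known. The script was tested on simulated data with the 14884 genes of SW480 and SW620. Of genes shifted by 0.5 (log2) it recovered 29 of 50, of those shifted by 1 49 of 50, and of those shifted by 2 or 3 all 50, and 9 of its 187 calls were false. Far fewer genes were shifted than the 5293 called in the data. The adjusted threshold was therefore stricter there, and these shares do not give the recovery in the data. Alternatives were other scalings, filters, variance models, feature rules, thresholds, treat at 1.2-fold, the replicate number as a block, and leaving out each array.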

Additional observations from a re-analysis of the deposited data

How the results depend on the processing

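All 33 called motors kept their call and direction under repeat quantile normalization, cyclic loess, centring on the 75th percentile or the median of each array, and the replicate block; these scalings moved the median of all genes by at most 0.0270. Same-numbered arrays of the lines did not deviate together (r from -0.0234 to -0.00889), so the numbers were not taken as pairs, and with the replicate block the counts stayed at 17 higher and 16 lower. Leaving out single arrays gave 14 to 17 higher and 15 to 16 lower motors, and 29 of the 33 calls held each time; MYO7B, MYO6, KIF13B and KIF3C did not.

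The counts depend on the minimum size. With treat at 1.2-fold 6 motors were higher and 8 lower, among them 0 lower mitotic kinesins, 2 higher other kinesins, 0 higher dynein chains and 2 higher myosins. At 2-fold 2 were higher and 3 lower: 0 mitotic kinesins either way, 1 higher and 2 lower other kinesins, 0 dynein chains, and 1 higher and 1 lower myosin. KIF4B (0.31, without SW620 replicate 3) and KIF13A (-0.27, without SW480 replicate 3) passed only with those arrays left out.

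The sign of motors near 0 that did not pass was not fixed. Repeat quantile normalization gave -0.000136 for KIF1B, -0.00775 for KIF17, -0.15 for KIF5B, -0.00860 for KIFC1 and -0.0101 for KIF25. Cyclic loess gave -0.00395, -0.0129, -0.0641, -0.0156 and -0.0138 for the same genes, and centring on the median gave -0.00745 for KIF5B and -0.000567 for KIFC1. The mean of all features gave 0.0152 for KIF27. Leaving out arrays gave -0.0513 to 0.0747 for KIF1B, -0.0856 to 0.0845 for KIF17, -0.0333 to 0.0437 for KIF5B, -0.0447 to 0.17 for MYO1A, -0.00275 to 0.0710 for KIF7, -0.0852 to 0.00571 for MYO15A, -0.10 to 0.0297 for MYO19, -0.00122 to 0.0981 for MYO18B, -0.0795 to 0.0713 for KIFC1, -0.00597 to 0.0494 for KIF25, -0.0120 to 0.12 for DNAH8-AS1 and -0.0254 to 0.11 for DYNLT2. The cause was not tested. Motors below the median feature may differ by more than their values show.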

Other observations

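The motors with at least a 2-fold difference were set beside the 5 nearest measured protein-coding genes on each side in RefSeq's gene order. Around MYO1D on chromosome 17, 4 of 10 neighbours were lower in SW620 and 0 higher, with differences from -2.13 to 0.14. The 10 neighbours of KIF26B on chromosome 1 ranged from -0.33 to 0.32, with 2 higher and 1 lower, and those of KIF1A on chromosome 2 from -0.21 to 0.50, with 1 higher. KIF5A on chromosome 12 was higher in SW620 while 6 of its 10 neighbours were lower and 0 higher, from -0.76 to 0.13. Around MYO1E on chromosome 15, 3 of 10 were higher and 1 lower, with differences from -0.61 to 2.27. Over all protein-coding genes 17.6% were higher and 21.9% lower.

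On some chromosomes motors differed in both directions. On chromosome 17, which holds 9 of the coding motors, KIF1C was higher and MYO1D, MYO1C, KIF18B and KIF2B were lower. On chromosome 15, with 5, MYO1E and MYO5C were higher and KIF23 and MYO9A lower. On chromosome 5, also with 5, KIF2A was higher and MYO10, KIF3A and KIF20A lower. On others the called motors went one way, with 0 higher and 3 lower on chromosome 1 and 2 higher and 0 lower on each of chromosomes 6 and 12. Over all chromosomes 24.6% of the coding motors were higher and 23.2% lower, against 17.6% and 21.9% of protein-coding genes. The copy number of these chromosomes in the lines was not analysed here.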
